A study of Rattus norvegicus with 11 samples.

Results

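The genes described here encode the proteins of the cytosolic ribosome. They were the 27 genes that a supplementary table of the study, a list of differing genes, names with a symbol starting with Rpl or Rps and a digit, or with the symbols Rplp0, Rplp1, Rplp2 or Rpsa, leaving out the kinases of the Rps6k type and Rpl30l1. They were found among 32883 genes counted, of which 1763 have a symbol in that table. The table holds mostly genes listed as differing between KM and W or between KM and “0” rats, so these 2 comparisons chose the members, and the values below from them are descriptions. All 27 stood in the KM vs W sheet, and 2, Rpl17 and Rps4y2, stood in both sheets. By symbol, 14 encode proteins of the large (60S) subunit and 10 proteins of the small (40S) subunit, and 3 are copies of small-subunit genes, Rps4y2, Rps10l1 and Rps4x-ps9. RefSeq lists 2 of the copies, Rps10l1 and Rps4x-ps9, as pseudogenes.

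Poly(A) RNA of the corpora quadrigemina, the inferior with the superior colliculi, was sequenced from 11 male rats, each as a library of its own. The rats were 4 months old. The 3 KM rats belonged to an inbred strain selected for seizures in response to sound (audiogenic epilepsy, AE). The 4 “0” rats came from a strain selected against such seizures from hybrids of KM and Wistar rats, a strain still under selection in which not every animal is free of them, and those used here had not responded to sound. The 4 W rats were outbred Wistar rats without AE. The labels give Wistar as the strain of all rats and separate the groups by proneness to AE. Every rat was exposed to sound 4 days before the tissue was taken. The KM and “0” rats had also been tested at a younger age, the “0” rats more often than the KM rats. The study recorded tonic seizures of the highest grade for KM rats on sound. Past seizures and strain therefore cannot be told apart here.

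Each cytosolic ribosome carries 1 copy of most of its proteins, so cells need their messages in roughly matched amounts. Most of these messages start with a run of pyrimidines, the 5′ terminal oligopyrimidine (TOP) tract, through which mTOR signalling sets how much of each is translated. In neurons ribosomes are found in dendrites as well as in the cell body, and protein synthesis there is tied to synaptic plasticity. Ribosomal proteins that are not built into ribosomes are degraded, and Rpl11 is known to bind Mdm2 when assembly fails.

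The start of the gene is shown for 10 members because it carries the sequence feature by which messages of this family are recognised. Rpl29, Rps27, Rplp1 and Rpl36 were the members furthest below their strain in KM 3 and “0” 4 (means of both differences, described below). Rpl6, Rpl28, Rps4y2 and Rpl11 were the members that differed least in that direction, and Rps16 and Rps2 are among the members with most counts. Each line holds 10 bases before the RefSeq gene start and 20 bases from it on, in genome build GRCr8, on the strand of the gene. Capitals mark the longest run of C and T that overlaps the 5 bases on either side of the start, and a run at the left edge can go on upstream.
Rpl29: TTTCTCTTTCTCTTCCggtcccaggcgctg
Rps27: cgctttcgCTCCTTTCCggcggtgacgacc
Rplp1: cgcatgtgaTCCTTTCCTCagctgccgcca
Rpl36: cggccgCCatcggaaagctgcaggtaagtc
Rpl6: ttacaTCactagatggcgggtgaaaaggcg
Rpl28: cccctagtgTCTTTCTTTCCgtctccggcc
Rps4y2: cagCTCTCCTCactcgcttgtgctctggga
Rpl11: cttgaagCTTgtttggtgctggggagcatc
Rps16: aaaaTCggtcggggtggccccaagctttcc
Rps2: TCTTTTTCTTCgggaaaacacgtgagtctg

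The windows lie at chr8:115947633-115947662 (plus strand) for Rpl29, chr2:177964587-177964616 (minus) for Rps27, chr8:71290853-71290882 (minus) for Rplp1, chr9:1533770-1533799 (plus) for Rpl36 and chr12:41011671-41011700 (minus) for Rpl6. Those of Rpl28, Rps4y2 and Rpl11 lie at chr1:78083513-78083542 (minus), chr4:183000903-183000932 (plus) and chr5:153560783-153560812 (minus). Rps16 starts within chr1:92770648-92770677 (plus) and Rps2 within chr10:14251838-14251867 (plus). A RefSeq window was given for 18 of the 27 members. A C/T run of at least 8 bases overlapping the start was found in 14 of these 18, and in 8.67% of all 33469 windows. The run had 18 bases at Rpl29, but 2 at Rpl36, another of the members furthest below their strain. Rpl28, among the members that differed least, had a run of 11. Rpl36, Rpl6, Rpl11 and Rps16 were the 4 without a run of 8 in this window. The RefSeq start is an annotated position and was not checked against the starts of messages in these rats. A short run here therefore does not show that a message lacks the TOP tract. In the windows from 250 bases before to 50 after the start, the letters CCGGAAG, searched on both strands, occurred in 7 of 18 members and in 8.75% of all windows. GGGCGG occurred in 11 of 18 and in 33.1% of all windows, and TATAAA in 2 of 18 and in 14.2%. These are matches of letters and not sites shown to be bound.

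The reads counted on genes numbered 10545964 in the smallest and 15140180 in the largest library, with 11861682 as the median. Levels are given as CPM, counts relative to the size of the library after TMM scaling, which does not correct for the length of a message. A count of 3, the smallest amount taken as measurable, stood for 0.178 to 0.331 CPM depending on the rat, and this covers counting error only. The lowest count of any member in any rat was 24, for Rps4x-ps9, and the 11 members that are given below only by their range had at least 345 counts in every rat. All 27 members passed the filter of a mean of 1 CPM in every comparison.

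Summed over the 27 members, the level was 3726, 4132 and 3016 CPM in KM 1 to 3. It was 5179, 4179, 6142 and 3082 CPM in “0” 1 to 4, and 5048, 4928, 4761 and 5758 CPM in W 1 to 4. Every KM rat was below every W rat, whereas the “0” rats went from a level within the KM range, in “0” 4, to one above the highest W rat, in “0” 3. The mean sum was 3624 ± 565 CPM (SD, n = 3) for the KM rats. It was 4645 ± 1315 CPM (SD, n = 4) for the “0” rats and 5124 ± 439 CPM (SD, n = 4) for the W rats. The “0” 3 library held 1.99 times the level of “0” 4, the KM rats differed among themselves by at most 1.37 times and the W rats by at most 1.21 times. In a sample of whole tissue, fewer cells with a high level and less RNA per cell cannot be told apart.

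The libraries KM 3, “0” 4 and “0” 3 stood apart from the others in a measure that did not use the members. The 10 genes with most counts over all rats took 16.4%, 15.6% and 7.21% of the counts in KM 1 to 3, 15.6%, 17.5%, 28.7% and 6.88% in “0” 1 to 4, and 13.9%, 16.9%, 17.8% and 18.8% in W 1 to 4. KM 3 and “0” 4, with the smallest shares, also had the lowest summed levels of the ribosomal protein genes, and “0” 3, with the largest share, had the highest. The part of this share in the results was not tested, so the counts and medians below are also given without these 3 libraries and with the share as a covariate. Reads outside annotated genes made up 21.5%, 19.8% and 19.3% in KM 1 to 3, 17.9%, 18.4%, 17.4% and 22.7% in “0” 1 to 4, and 20.1%, 21.7%, 17.6% and 16.5% in W 1 to 4.

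**Figure D1:**
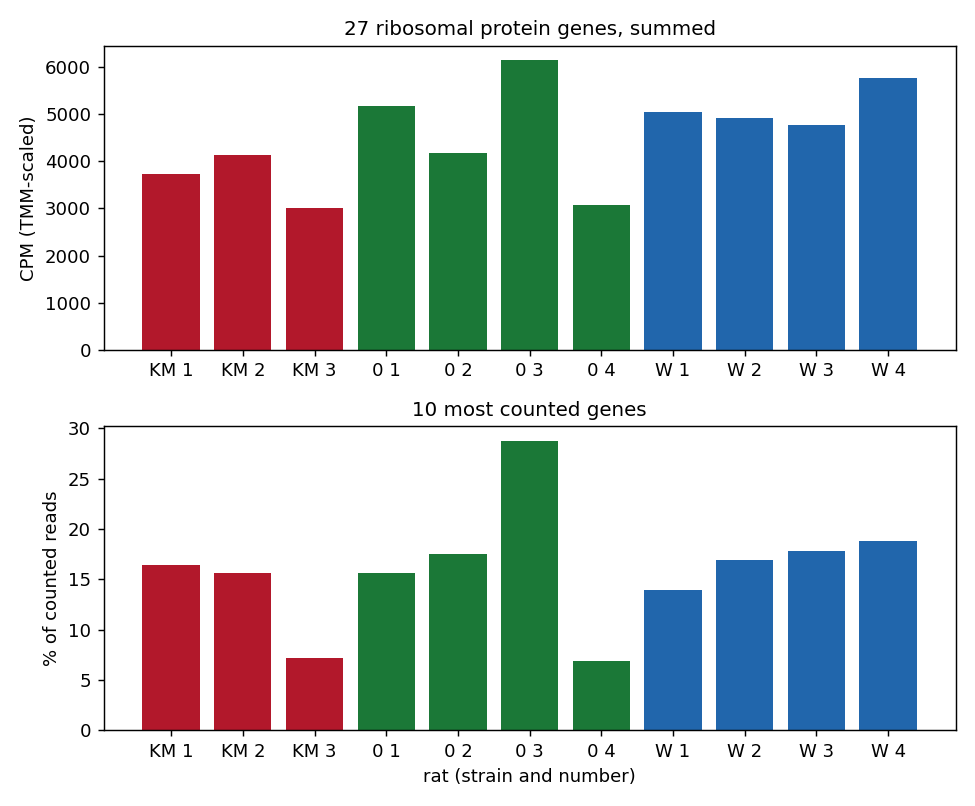
Summed CPM of the 27 ribosomal protein genes (upper bars) and the percent of counted reads on the 10 most counted genes (lower bars) in each rat, 1 bar per rat, red for KM, green for “0” and blue for W. The member sums of KM 3 and “0” 4 are 3016 and 3082 CPM, the lowest of the 11, and these rats have the smallest shares in the lower plot.

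In KM vs W, the contrast that chose the members, 25 of the 27 had a lower level in KM rats and 2, Rpl30 and Rps4y2, a higher one. Genes were counted as called at an unadjusted p under 0.05 in the quasi-likelihood F-test of edgeR. Called were 21 members in the lower direction and 2 in the higher direction, where 10.9% of all 13721 genes tested were called, 5.33% lower and 5.58% higher. No overlap between KM and W rats was found for 22 lower and 2 higher members, and for 6.52% and 5.12% of all genes. The median log2-fold change of the members was −0.51, and that of all genes 0.01, of which 47.8% were below 0. In edgeR 0 members had an adjusted p under 0.05, as 0.0656% of all genes did, and 23 an unadjusted p under 0.05. With DESeq2 these numbers were 5 and 27, where 1.07% and 10.8% of all genes had such a p. The members nearest to the threshold inside it were Rpl15 and Rps18, with unadjusted p values of 0.0394 and 0.0416. Just outside stood Rps16, Rpl35, Rpl28 and Rpl11, at 0.0521, 0.0557, 0.0579 and 0.0579. With KM 3 left out, 16 members were called lower and 2 higher, the median was −0.36, and 1588 of all genes were called. With all 11 rats in 1 fit, 7 members were called lower and 2 higher, the median was −0.51, and 1225 of all genes were called. Of the members given with values, Rpl29, Rpl36, Rplp1, Rps27, Rps10l1 and Rps4x-ps9 lost their call in that fit. Their log2-fold changes in it were −0.79, −0.86, −0.81, −0.92, −0.61 and −0.71. Rpl28, Rpl35 and Rps16 were not called in either fit.

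Among the 14 large-subunit genes, 13 were lower in KM than in W rats and 10 of them were called, with a median log2-fold change of −0.46. Rpl17, whose protein lines the exit tunnel for the nascent chain, had 123, 140 and 63.9 CPM in KM 1 to 3, 391, 285, 380 and 177 CPM in “0” 1 to 4, and 167, 174, 247 and 362 CPM in W 1 to 4. No KM value of Rpl17 overlapped a value of another group, and the “0” and W values overlapped. The log2-fold change of Rpl17 was −1.11 (standard error, SE, 0.35) in KM vs W, the lowest of the 27, and −1.48 (SE 0.34) in KM vs “0”.

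Rpl29 encodes a small basic protein of the 60S subunit that also binds heparin. It had 58.0, 58.0 and 32.0 CPM in the KM rats, 70.3, 68.0, 95.1 and 15.7 CPM in the “0” rats, and 82.0, 83.7, 78.0 and 101 CPM in the W rats. For Rpl36, another basic 60S protein, the values were 46.4, 41.2 and 23.8 CPM in KM, 44.1, 40.6, 70.6 and 13.3 CPM in “0” and 63.5, 67.1, 67.3 and 72.8 CPM in W rats. Both genes were lower in every KM rat than in any W rat, and their lowest value of all was that of “0” 4. The KM vs W log2-fold change was −0.79 (SE 0.22) for Rpl29 and −0.86 (SE 0.22) for Rpl36.

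Rplp1 encodes an acidic protein of the stalk, the arm of the large subunit that recruits translation factors. Its level was 162, 132 and 65.1 CPM in KM rats, 146, 173, 233 and 55.9 CPM in “0” rats, and 198, 227, 222 and 200 CPM in W rats. The W rats lay close together, and KM 3 and “0” 4 were far below the rest of their strains. The log2-fold change was −0.81 (SE 0.28) in KM vs W, and −0.51 without KM 3. Rplp0, Rplp2 and Rpsa, which the rule also allowed, are not named in the table.

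Rpl28 and Rpl35 were the 2 large-subunit genes among the 5 members with most counts. Rpl28 had 238, 259 and 238 CPM in KM, 265, 224, 323 and 273 CPM in “0” and 298, 276, 277 and 300 CPM in W rats. This was the member that varied least over the 11 rats, with an SD of 0.16 on the log2 CPM scale, and its log2-fold change was −0.23 (SE 0.10). Rpl35, a protein beside the exit tunnel, had 210, 243 and 141 CPM in KM, 276, 225, 326 and 102 CPM in “0” and 276, 259, 237 and 304 CPM in W rats. KM 2 lay above W 3, so these groups overlapped, and the log2-fold change was −0.43 (SE 0.19). Without KM 3 it was −0.23, and Rpl35 was called only without KM 2, at −0.62, and without W 3, at −0.49, among the fits that dropped a single rat.

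Rpl30 was the large-subunit gene with a higher level in KM rats. Its values were 20.8, 32.1 and 26.2 CPM in KM, 37.4, 21.2, 31.4 and 24.1 CPM in “0” and 12.2, 20.7, 7.80 and 15.1 CPM in W rats. Every KM and every “0” rat was above every W rat, but KM 1 and “0” 2 exceeded W 2 by a narrow margin. The log2-fold change was 0.92 (SE 0.30) in KM vs W, and without KM 2 it was 0.75 and not called. Near-identical copies of this gene exist in the rat genome, and how reads that fit several copies were counted is not given in the sources used here, so the level of Rpl30 is uncertain.

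All 10 small-subunit genes were lower in KM than in W rats, 9 of them called, with a median log2-fold change of −0.51. Rps27, whose protein carries a zinc finger, had 127, 108 and 57.5 CPM in KM, 119, 129, 213 and 34.9 CPM in “0” and 166, 198, 187 and 194 CPM in W rats. Its spread over the 11 rats was the largest of the 27, an SD of 0.81 on the log2 CPM scale, with KM 3 and “0” 4 at the lower end and “0” 3 at the upper. Its KM vs W log2-fold change was −0.92 (SE 0.25).

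Rps16, whose tail reaches the transfer RNA in the P site, had the most counts of the 27. It had 484, 548 and 457 CPM in KM, 709, 500, 826 and 559 CPM in “0” and 627, 628, 520 and 708 CPM in W rats. KM 2 was above W 3, and the “0” rats spread over both groups. Its log2-fold change was −0.31 (SE 0.14) in KM vs W, not called, and −0.40 and called without KM 2 or without W 3.

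Rps2, which sits at the entry of the messenger RNA, had 220, 239 and 203 CPM in KM, 308, 248, 357 and 223 CPM in “0” and 342, 306, 285 and 328 CPM in W rats. Every KM rat was below every W rat, and the “0” rats overlapped both groups. The KM vs W log2-fold change was −0.51 (SE 0.12).

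Another 11 members, Rpl6, Rpl10, Rpl11, Rpl14, Rpl15, Rpl27, Rpl27a, Rps15a, Rps18, Rps21 and Rps25, were all lower in KM than in W rats. Their log2-fold changes lay between −0.75 for Rps25 and −0.26 for Rpl11, and 10 of the 11 were called.

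Of the 3 copies, Rps10l1 and Rps4x-ps9 were lower and Rps4y2 higher in KM than in W rats. Rps4y2, a copy of the Rps4 gene, had 9.72, 7.77 and 7.66 CPM in KM, 5.49, 5.78, 5.95 and 6.31 CPM in “0” and 3.36, 2.22, 5.40 and 4.43 CPM in W rats. The 3 groups did not overlap, with KM highest and W lowest, but “0” 1 and W 3, with 69 and 63 counts, were apart by a narrow margin. The log2-fold change of Rps4y2 was 1.13 (SE 0.30) in KM vs W and 0.52 (SE 0.20) in KM vs “0”.

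Rps10l1 had 43.8, 46.7 and 24.6 CPM in KM, 59.8, 46.0, 55.8 and 19.3 CPM in “0” and 58.7, 54.7, 52.5 and 70.7 CPM in W rats. Rps4x-ps9 had 2.51, 2.11 and 1.42 CPM in KM, 3.26, 2.56, 4.52 and 1.56 CPM in “0” and 3.36, 2.99, 3.60 and 3.30 CPM in W rats. KM 3 and “0” 4 had the lowest values of both copies, and every KM rat was below every W rat. The log2-fold changes were −0.61 (SE 0.23) for Rps10l1 and −0.71 (SE 0.27) for Rps4x-ps9. Rps10l1 was at −0.36 without KM 3 and was not called without W 4. Rps4x-ps9 was not called without KM 2, KM 3, W 1 or W 3, where it lay between −0.76 and −0.49, or with the replicate block. Reads of such copies can come from their parent genes, so the levels of all 3 are uncertain.

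**Figure D2:**
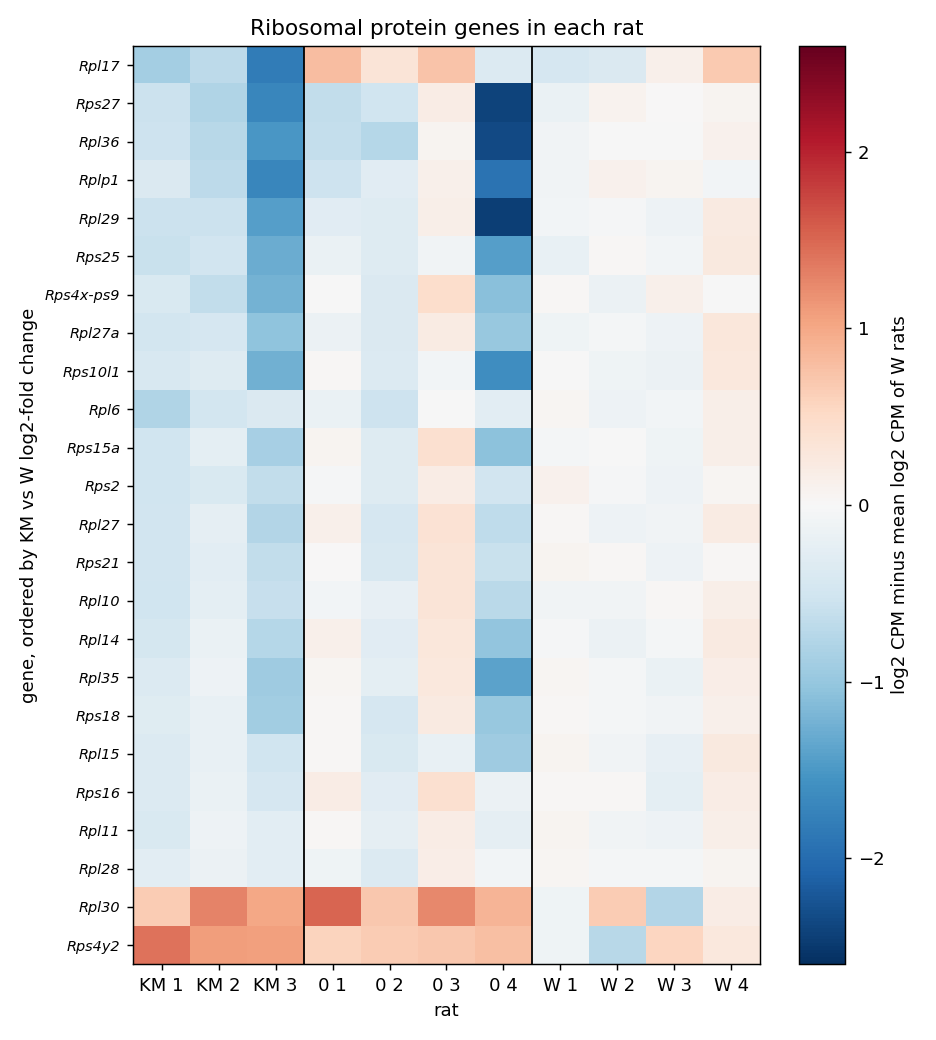
Log2 CPM of 24 of the genes in each rat minus the mean log2 CPM of the W rats, in color from blue (lower) to red (higher), with genes in rows ordered by their KM vs W log2-fold change and rats in columns. Most rows are blue in KM 3 and “0” 4 and pale or red in “0” 3, and Rpl30 and Rps4y2, in the last rows, are red in all KM and “0” rats.

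Rat by rat, 25, 22 and 25 members were below the lowest W rat in KM 1 to 3. In “0” 1 to 4 these numbers were 8, 24, 0 and 23. Above the highest W rat stood 2 members in each KM rat, and 4, 2, 19 and 2 members in “0” 1 to 4. Most members were below the W range in “0” 2 and “0” 4 and above it in “0” 3. The share of all genes outside such a range is not given for single rats, so these counts are descriptions. The median log2 difference of the members from W rats was −0.46, −0.28 and −0.82 in KM 1 to 3. It was 0.01, −0.33, 0.23 and −0.98 in “0” 1 to 4. For all genes it was −0.008, −0.003 and 0.021 in KM 1 to 3 and 0.007, 0.002, −0.011 and 0.009 in “0” 1 to 4. In “0” 4, 15 members were also below the lowest KM rat.

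In KM vs “0” the same 3 KM rats were compared with the “0” rats. Lower in KM were 26 of the 27 members, with Rps4y2 the exception, and the median log2-fold change was −0.31, against 0.01 for all genes, of which 48.9% were below 0. Called were 1 member in the lower direction, Rpl17, and 1 in the higher, Rps4y2, where 3.65% of the 13686 genes tested were called, 1.29% lower and 2.37% higher. The same 2 were the members whose KM and “0” rats did not overlap, which held for 2.33% of all genes in the lower and 2.3% in the higher direction. These 2 are the members that the KM vs “0” sheet had listed. Of the 7 fits that dropped a single rat, Rpl17 was called in 7 and Rps4y2 in 2, those without KM 3 and without “0” 4. Rps4y2 was also not called in 1 fit of all rats, at 0.52, or with the replicate block, at 0.55. With DESeq2 the same number of members, 2, had an unadjusted p under 0.05 and 1 an adjusted p under 0.05, where 3.71% and 0.293% of all genes did. In edgeR 0 members and 0.0146% of all genes had an adjusted p under 0.05. For the large-subunit genes the median was −0.29 and for the small-subunit genes −0.33. Rps16 was at −0.37 (SE 0.20) and Rps2 at −0.35 (SE 0.19). Rpl30 was at −0.10 (SE 0.23), and the values of the 11 members given by range lay between −0.39 for Rps15a and −0.01 for Rpl15. The SEs of Rpl29 and Rps27, 0.50 and 0.51, were larger than their log2-fold changes of −0.32 and −0.33. Without “0” 4, 10 members, Rpl29 (−0.65) and Rps2 (−0.45) among them, were called lower and the median was −0.48, and 706 of all genes were called, against 500 with all rats. Without “0” 3, Rpl29 was at −0.04 and Rps2 at −0.23, and neither was called. Without KM 3, 1 was called lower and the median was −0.10, and 921 of all genes were called. Rps16 was called, at −0.48, without “0” 2, and was at −0.25 and not called without “0” 3.

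The comparison of “0” with W rats asks whether the strain bred from KM and Wistar rats held Wistar levels of these genes. It did not choose the members, but it shares the W rats with KM vs W. The W values were part of that choice, which favoured the same directions in “0” vs W. The directions, calls and p-values of the members below are therefore descriptions. Lower in “0” rats were 23 members, and 4 were higher, Rpl30, Rps4y2, Rpl17 and Rps16. The median log2-fold change was −0.18, and over all 13630 genes tested, 52% of them below 0, it was −0.01. With edgeR 0 members were called lower and 2 were called higher, where 6.69% of all genes were called, 3.43% lower and 3.26% higher. DESeq2 also called 2, both higher, and 6.78% of all genes. In edgeR and in DESeq2, 0 members had an adjusted p under 0.05, where edgeR gave one to 0.11% and DESeq2 to 0.873% of all genes. The rats did not overlap for 0 lower and 2 higher members, and for 1.99% and 2.33% of all genes.

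Rpl30 rose in “0” compared with W rats by 1.02 on the log2 scale (SE 0.29, unadjusted p = 0.00544, adjusted p = 0.404 in edgeR). All 4 “0” rats were above all 4 W rats, “0” 2 by a narrow margin. Rps4y2 rose by 0.61 on the log2 scale (SE 0.27, unadjusted p = 0.0475, adjusted p = 0.740 in edgeR), with no overlap but a narrow margin between “0” 1 and W 3. The calls rest on the unadjusted p, and neither gene passed after adjustment over all genes. Rpl30 was still called in all 8 fits that dropped a single rat, and Rps4y2 in 2 of the 8, those without W 3 and without W 4. Rps4y2 was also not called without “0” 3 and “0” 4 together or with the share as a covariate. Rpl17 was at 0.37 (SE 0.30, unadjusted p = 0.254, adjusted p = 0.952 in edgeR) and was not called, and the rats overlapped. Without W 4 it was called, at 0.64. Of the members lower in “0” rats, Rpl36 had the lowest log2-fold change, −0.70 (SE 0.38, unadjusted p = 0.0941, adjusted p = 0.853 in edgeR). Rps27 followed at −0.60 (SE 0.41, adjusted p = 0.910 in edgeR). Without “0” 3 both were called, Rpl36 at −1.06 and Rps27 at −0.99, as was Rplp1 at −0.76. Without “0” 4 these 3 were at −0.39, −0.27 and −0.20 and not called. The spread of the “0” rats, from 13.3 to 70.6 CPM for Rpl36, was wider than the difference between the means. The 11 members given by range lay between −0.45 for Rps25 and −0.06 for Rpl11, and 0 of them were called. Without “0” 3, 5 members were called lower and 1 higher, with a median of −0.33 and 913 of all genes called. Without “0” 4, 0 were called lower and 1 higher, with a median of 0.01 and 818 of all genes called.

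**Figure D3:**
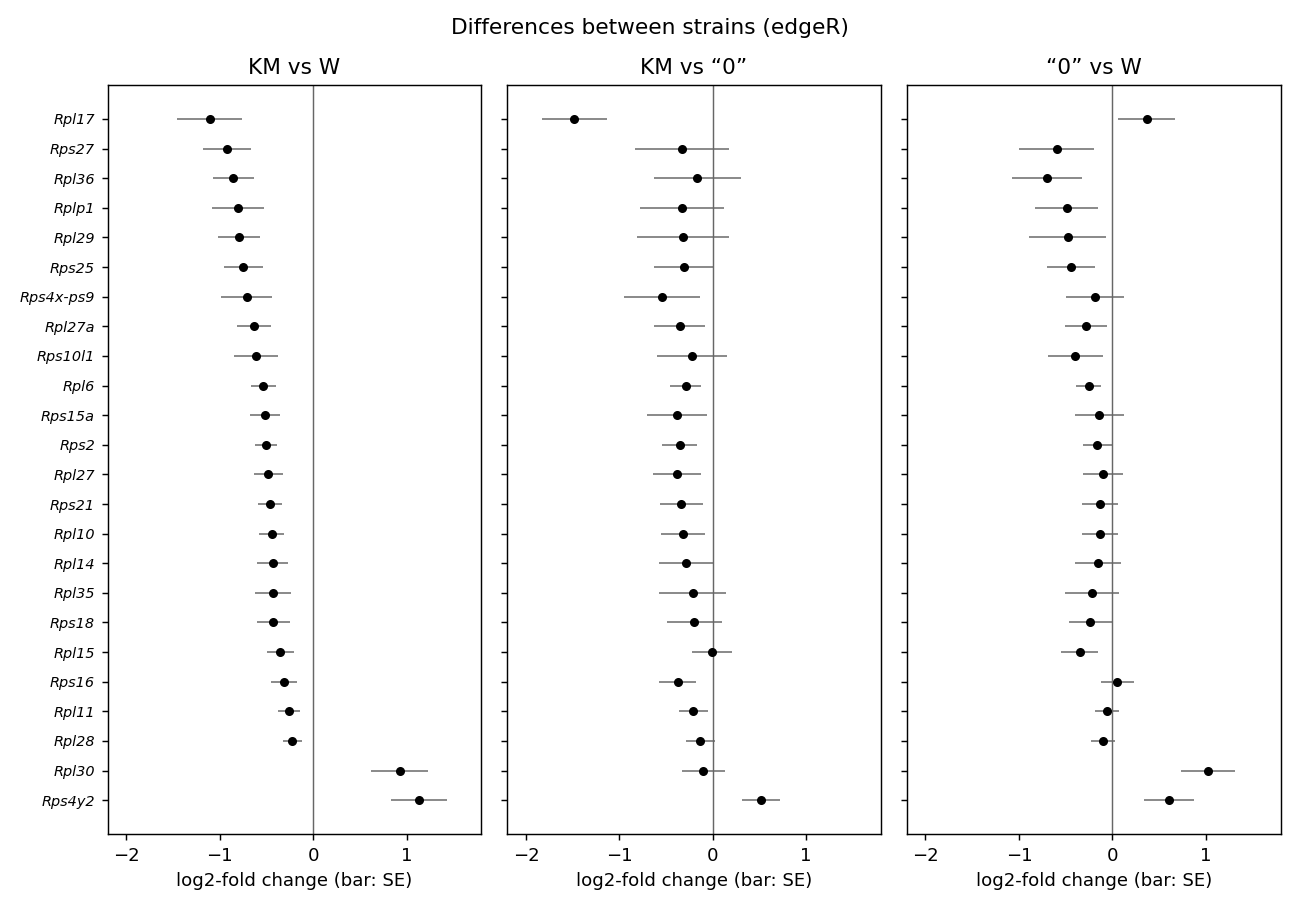
Log2-fold change of 24 of the genes (points) with its standard error (bars) in the 3 comparisons, 1 panel each, genes in the order of KM vs W from the lowest at the top. In the first panel 22 of 24 points lie below 0, in the second 23 and in the third 20, and the bars of most genes are longer in the last 2 panels, which hold the “0” rats.

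**Figure D4:**
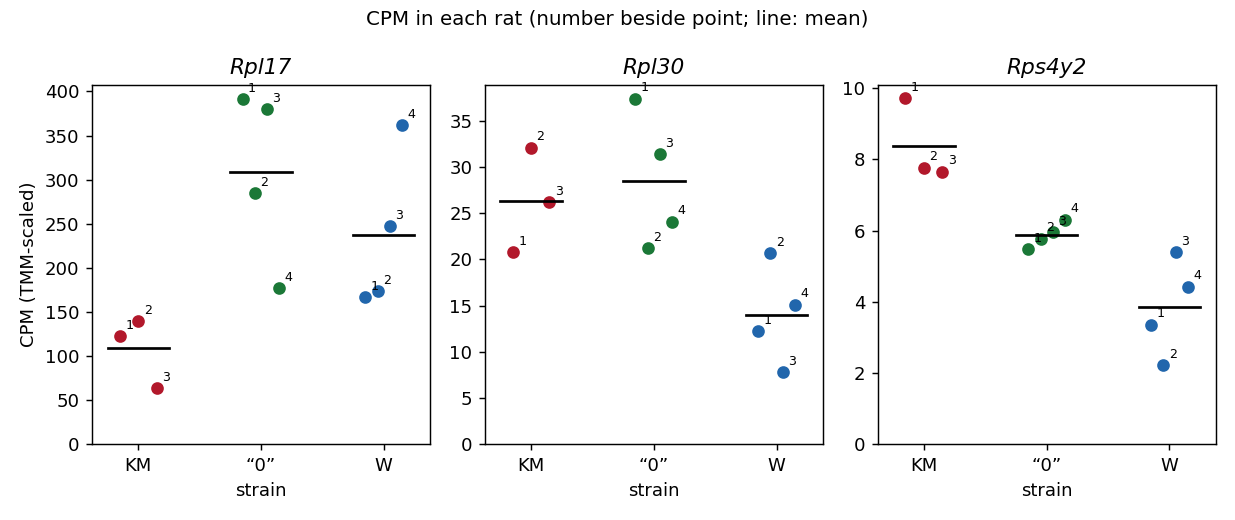
CPM of Rpl17, Rpl30 and Rps4y2 in each rat (points with the number of the rat, line at the group mean). For Rpl17 the 3 KM rats are lowest at 63.9 to 140 CPM, for Rpl30 the 4 W rats are lowest at 7.80 to 20.7 CPM, and for Rps4y2 the KM rats are highest.

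Within strains most members differed in the same direction from rat to rat, as seen when KM 3, “0” 4 and “0” 3 were set against other rats of their own strain. These libraries were chosen by the share of counts on the 10 most counted genes and not by the members. In turn, KM 3 and the W rats were among the rats whose comparison chose the members, so their differences here are descriptions. In KM 3, 25 of 27 members were below the mean of KM 1 and KM 2, with a median difference of −0.48 in log2 CPM, whereas the median of all 13694 genes was 0.03 and 46.6% of them were below 0. In “0” 4, 24 of 27 were below the mean of “0” 1 and “0” 2, with a median of −0.78, against 0.01 for all genes, of which 49.2% were below 0. In “0” 3, 26 of 27 were above the mean of “0” 1 and “0” 2, with a median of 0.41. The median of all genes was 0.004 there, and 49.5% of them were below 0. The 10 most counted genes had medians of −1.54 in KM 3, −2.0 in “0” 4 and 1.12 in “0” 3. Their directions were set by the choice of these libraries. In W 4, the W rat with the largest share, 25 of 27 members were above the mean of W 1 to 3, by a median of 0.21. For all genes the median was −0.002, and 50.2% of them were below 0.

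The members did not differ by equal amounts in these libraries. In KM 3 the difference went from −1.16 for Rplp1 to 0.26 for Rpl6, and in “0” 4 from −2.13 for Rpl29 to 0.17 for Rpl28. Rps27 was at −1.02 in KM 3 and −1.82 in “0” 4, and Rpl36 at −0.87 and −1.66. Rpl28, at −0.06 and 0.17, and Rps16, at −0.17 and −0.09, stayed near the level of their strains. Across the 27 members the differences in KM 3 and in “0” 4, which share no rat, had a Spearman correlation of 0.898 and a Pearson correlation of 0.872. Over the 24 members that are not copies the Spearman correlation was 0.899, and over all 13694 genes it was 0.219. Genes of a library share its depth and handling and are not independent. KM 3 also took part in the choice of the members, so these correlations are descriptions. Of the 8 lowest members in each of the 2 libraries, 7 were the same, among them Rpl29, Rpl36, Rplp1, Rps10l1, Rps25 and Rps27. Rpl29, Rpl36, Rplp1 and Rps27 were also the 4 lowest members after Rpl17 in KM vs W, a comparison that holds KM 3.

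**Figure D5:**
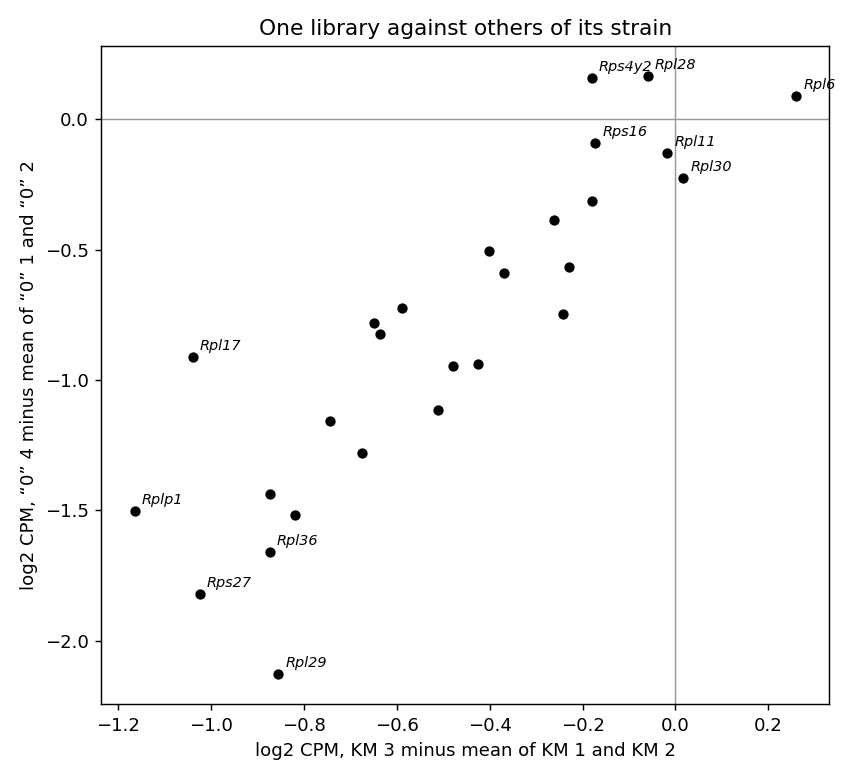
Difference in log2 CPM of each of the 27 genes between KM 3 and the mean of KM 1 and KM 2 (horizontal axis) and between “0” 4 and the mean of “0” 1 and “0” 2 (vertical axis), 1 point per gene. Rpl29, Rps27, Rplp1 and Rpl36 lie at the lower left and Rpl6, Rpl28 and Rps4y2 at the upper right.

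With KM 3, “0” 3 and “0” 4 left out, a choice made after seeing the data, the KM vs W comparison of 2 KM with 4 W rats had 25 members below 0, 16 called lower and 2 higher, with a median of −0.36, where 11.6% of all genes were called. In KM vs “0”, 2 rats against 2, 24 members were below 0 with a median of −0.20, and 1 was called in each direction, where 7.37% of all genes were called. In “0” vs W, 24 members were below 0 with a median of −0.17, 4 were called lower (Rpl36, Rps27, Rplp1 and Rpl6) and 1 higher (Rpl30), where 6.06% of all genes were called. With the share of the 10 most counted genes as a covariate and all rats kept, KM vs W had 25 members below 0, 14 called lower and 2 higher, with a median of −0.34, where 12.8% of all genes were called. In KM vs W Rpl17 was then at −0.66, Rpl29 at −0.51, Rplp1 at −0.48 and Rps27 at −0.60, and Rps10l1 and Rps4x-ps9 were not called. KM vs “0” then had 17 members below 0, 1 called in each direction and a median of −0.07, where 3.73% of all genes were called. In “0” vs W 5 members were then called lower (Rpl36, Rps27, Rplp1, Rpl29 and Rps25) and 1 higher (Rpl30), with a median of −0.16, where 7.07% of all genes were called. KM 1 and KM 2 were among the rats whose comparison with W rats chose the 27 members, so their lower levels in KM vs W are a description here too.

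Markers of other cells in the tissue were given by the table for part of each list. The table holds mostly genes listed as differing, so differences of the named markers between strains were favoured by that choice. The choroid plexus list, 6 of 8 genes named, had a summed level of 27.9, 66.8 and 7008 CPM in KM 1 to 3, 27, 21.1, 15 and 22.9 CPM in “0” 1 to 4 and 34.8, 25.5, 68.1 and 37.5 CPM in W 1 to 4, with Ttr the most abundant. KM 3 alone was high in this list, and its part in the levels of the ribosomal protein genes was not tested. The erythrocyte list, 5 of 11 symbols named, summed to 2667, 2750 and 1431 CPM in KM, 1813, 1141, 1320 and 1688 CPM in “0” and 4078, 3702, 2751 and 7302 CPM in W rats, with Hba-a2 the most abundant. Every KM and every “0” rat was below every W rat, KM 2 by a narrow margin. Of the 6 genes tested under these symbols 4 were called lower in KM vs W and 6 in “0” vs W. In KM vs “0”, 5 were tested, 3 were called higher and 0 lower, with a median log2-fold change of 0.64. Of all genes, 5.33%, 3.43% and 2.37% were called in these directions. Lower with no overlap were 6.52% of all genes in KM vs W and 1.99% in “0” vs W. The part of this list in the results was not tested. The astrocyte list (4 of 7, Gfap most abundant) summed to 3724, 3142 and 3337 CPM in KM, 2812, 2572, 2786 and 3394 CPM in “0” and 2960, 2587, 2498 and 2628 CPM in W rats. Of its 4 genes 1 was called higher, Gfap, and 2 lower in KM vs W. Tmem119 of microglia, 1 of 8 named, had 27.1, 22.6 and 23.9 CPM in KM, 14.9, 17.3, 25.1 and 21.5 CPM in “0” and 15.7, 20.1, 17.7 and 16.5 CPM in W rats. The endothelial list (2 of 6, Flt1 most abundant) summed to 154, 166 and 153 CPM in KM, 143, 168, 156 and 152 CPM in “0” and 116, 105, 124 and 135 CPM in W rats. For each of these 3 values all KM rats lay above all W rats, as did all “0” rats for the endothelial list. Higher with no overlap were 5.12% of all genes in KM vs W and 2.33% in “0” vs W. The part of these markers in the results was not tested. Of the 10 genes of the colliculus list only Pou4f1 was named. It had 0.0810, 0.169 and 1.19 CPM in KM, 0.239, 1.71, 1.87 and 2.08 CPM in “0” and 1.20, 2.76, 2.31 and 0.848 CPM in W rats. It was called lower in KM vs W, at −1.78 (SE 0.76), with KM 1 and KM 2 under a level of 3 counts, and its part in the results was not tested. No neuron, cerebellum or mitochondrial genome marker was named, so the tissue label could not be checked with them, and no marker gene was at 0 in every rat.

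Other genes of the pathway could be used only where the table names them, so their calls in KM vs W and KM vs “0” were favoured by that choice. Among other TOP messages, 5 of 23 were named. In KM vs W 3 were called lower, the initiation factor genes Eif3k, Eif3f and Eif3l, and 2 higher, Nap1l1 and Hnrnpa1, and in “0” vs W 1 was called, Nap1l1, higher. Of the ribosome biogenesis factors, 10 of 49 were named, with 4 called lower and 4 higher in KM vs W. Their median log2-fold change was −0.24 there. The 4 called lower were Nip7 (−0.40), Polr1e (−0.39), Polr1b (−0.28) and Nop56 (−0.23). Sbds, which releases eIF6 from the 60S subunit, was 0.46 higher (log2, SE 0.14) in KM vs W, and 0.34 higher (SE 0.12, adjusted p = 0.593 in edgeR) in “0” vs W. Genes for proteins of the mitochondrial ribosome, 9 of them named, had 8 called lower and none higher in KM vs W, with Mrpl50 at −0.69 (SE 0.13) and Mrps15 at −0.51 (SE 0.13). In “0” vs W, 3 of these 9 were called lower, Mrps7, Mrpl50 and Mrpl22. Beside these lists, the shares of all genes called in KM vs W were 5.33% lower and 5.58% higher. In “0” vs W, which shares the W rats with KM vs W, they were 3.43% lower and 3.26% higher.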

How the data were processed

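RNA of 11 rats was sequenced as directional poly(A) libraries with 75-bp single-end reads. The authors trimmed the reads with Trimmomatic, mapped them with STAR to Rnor_6.0 and obtained read counts per gene with HTSeq-count; versions, the strand setting and the handling of reads on several genes are not given in the sources used here. The deposited counts are whole reads without normalization, with 10545964 to 15140180 assigned reads per rat. Groups and numbers were taken from the sample titles. Nothing marks the rats of a group as other than separate animals, and rats of a strain differed by more than sampling noise.

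The strains were compared in pairs with R 4.3.3 and edgeR 4.0.16, each fit holding only the rats of that pair (TMM factors, original form of the quasi-likelihood F-test). Genes entered a fit where their mean reached 1 CPM. A call means an unadjusted p under 0.05, and Benjamini-Hochberg values were taken over all genes tested. The standard error was the log2-fold change divided by the square root of F. CPM levels used 1 set of TMM factors for all rats, and log2 CPM a prior count of 2. DESeq2 1.42.0 was an alternative. The procedure was tested on simulated data.

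Symbols came from the supplementary table of the study, and the sequences from RefSeq (GRCr8), matched by symbol. Members and lists were chosen with earlier results of these data known. Values in every rat are given for the 5 members with most counts, the 5 lowest and 3 highest in KM vs W, those in both sheets, the copies, and the 2 furthest on the other side of 0 in “0” vs W. Some members, another gene of the family and a cell type marker that these rules would name are not reported here, and counts over all 27 members include the former. From other lists, those with the lowest p were named, and also the biogenesis factors called lower in KM vs W. No columns of fold changes or p-values by the authors were used. Leaving out KM 3, “0” 3 and “0” 4, and the share covariate, were added after seeing the data.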

Additional observations from a re-analysis of the deposited data

How the results depend on the processing

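The direction of the 13 members named with values did not turn in KM vs W under any alternative tried. That comparison chose these members and the alternatives used the same rats, so the kept direction is a description. The count of members called lower in KM vs W was 7 when all 11 rats were fitted together. In that fit the median was −0.51 and 1225 of all genes were called. With single rats left out, 16 to 23 members were called lower and 1 to 2 higher. The medians then lay between −0.62 and −0.36, and 954 to 1831 genes were called. In KM vs “0” the count of genes called was 777 without a filter, 781 with the replicate block and 1004 without KM 3, “0” 3 and “0” 4. Leaving out each rat gave 280 to 921 genes called, 1 to 10 members lower (10 without “0” 4), 0 to 1 higher and medians of −0.48 to −0.10. The 1 member called higher, Rps4y2, was lost, leaving 0, in 1 fit of all rats and with the replicate block. Its log2-fold change was 0.52 and 0.55 there. In “0” vs W, leaving out each rat gave 612 to 1017 genes called, 0 to 5 members lower (5 without “0” 3), 1 to 3 higher and medians of −0.33 to 0.01. Without the 3 libraries 4 members were called lower and 1 higher, and with the covariate 5 lower and 1 higher. The cause of these changes was not tested.

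The replicate numbers were not taken as pairs in the main fits. Deviations of same-numbered rats correlated at −0.15, −0.18 and 0.19 in KM vs W and at 0.06, 0.06 and 0.24 in KM vs “0”. In “0” vs W these correlations were 0.11, −0.01, 0.51 and −0.58. They cannot show whether same-numbered rats were handled together. With the replicate block 15 members were called lower and 2 higher in KM vs W (1527 of all genes), 5 lower and 0 higher in KM vs “0” (781 of all genes), and 0 lower and 2 higher in “0” vs W (804 of all genes).

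Reversed directions were found among members that were not called. In KM vs “0”, Rpl28 was at 0.048 and Rpl36 at 0.072 without the 3 libraries. With the covariate Rpl29 was at 0.22, Rpl35 at 0.10, Rpl36 at 0.32, Rplp1 at 0.060, Rps10l1 at 0.056 and Rps27 at 0.21. Leaving out each rat moved Rpl30 between −0.27 and 0.051, Rpl35 between −0.46 and 0.0013, Rpl36 between −0.47 and 0.20, Rps10l1 between −0.48 and 0.041, and Rps27 between −0.65 and 0.061. In “0” vs W, Rps16 was at −0.040 without the 3 libraries, and leaving out each rat moved it between −0.077 and 0.16, Rpl35 between −0.42 and 0.038 and Rps4x-ps9 between −0.44 and 0.055. Per-gene depth limited Rps4x-ps9 most, with as few as 24 counts.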

Other observations

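Rpl30l1, a gene like Rpl30 that the choice of members left out, was looked at after its values were seen. It had 24, 32 and 48 counts in KM 1 to 3, 65, 26, 34 and 45 counts in “0” 1 to 4, and 0 counts in all 4 W rats, where a count of 0 allows up to 3. Rpl30 itself was higher in KM and “0” than in W rats. Both are near-identical copies, and how reads that fit both were counted is not given in the sources used here.

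Of the mTOR signalling list, 3 of 22 genes were named in the table. Ddit4, which inhibits mTOR complex 1, was at a log2-fold change of −0.47 (SE, standard error, 0.10) in KM vs W and −0.80 (SE 0.13, adjusted p = 0.0724 in edgeR) in “0” vs W. Tsc2 was at −0.37 (SE 0.16) in KM vs W. In KM vs “0”, Eif4g1 was called lower at −0.35 (SE 0.13). Of the targets of p53, 1 of 10 was named, Cdkn1a, at 1.15 (SE 0.37) in KM vs W and 0.58 (SE 0.26, adjusted p = 0.744 in edgeR) in “0” vs W. Among the ribosome biogenesis factors Bms1 was at 0.32 (SE 0.11) in KM vs W. In KM vs “0” Nip7 was called lower at −0.60 (SE 0.21), and Gar1 was at −0.46 (SE 0.21) and not called. Of the mitochondrial ribosomal genes, Mrps9 was at −0.41 (SE 0.18) in KM vs “0”.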
